A study of Mus musculus with 3 samples.

Results

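LApcL and WT intestinal organoids were compared in their deeply sequenced epithelial cells, to describe which genes separate organoids that lack Apc and Lef1 by design from wild-type organoids. Cells were chosen by 3 criteria: a barcode string found in only 1 library of the series, at least 10000 unique molecular identifiers (UMIs, tags that count each captured RNA molecule once) and at most 20% of UMIs from mitochondrially encoded genes. These criteria kept 1208 of 11411 WT barcodes and 1931 of 12068 LApcL barcodes, together 3139 of the 34185 barcodes of the series. The kept WT cells held 48895147 UMIs and the kept LApcL cells 80504226.

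The series profiled small intestinal organoids by droplet single-cell RNA-seq in 3 genotypes, with 1 library each. WT is wild type. LApc, given here only as a value beside the other pair, is Lgr5-CreERT2;Apc fl/fl. LApcL carried the same Cre and Apc alleles together with Lef1 fl/fl. All mice were labelled C57BL/6, were 7 to 8 weeks old at treatment and received 2 doses of 2 mg tamoxifen, WT included. WT and LApcL were taken 21 days after tamoxifen and LApc 29 days after, and all organoids were at passage 3, day 6 of culture. The Cre was driven by Lgr5, so that recombination was limited to cells that expressed this stem cell gene and their descendants, and the Lef1 fl/fl line came from a mixed background that had been backcrossed to C57BL/6. For LApc and LApcL organoid cultures the study's methods describe a base medium that lacked added growth factors before passage 3. Which supplements, if any, these libraries had at that passage, and the medium of WT, are not given in the sources used here, nor is the number of mice behind each library, so genotype, mouse, culture and medium cannot be told apart. With 1 library per genotype no test between genotypes was possible. All intervals are exact at the 95% level and cover counting error only.

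Before the values, 3 properties of the libraries bear on them. WT and LApcL shared 3280 barcode strings, 28.7% of the WT and 27.2% of the LApcL barcodes, and leaving out every barcode found in more than 1 library of the series cost 9 deep WT and 5 deep LApcL cells within the mitochondrial limit. The kept cells had a median of 38074 UMIs in WT and 32584 in LApcL, while the median number of genes detected was 5299 and 5942. The median mitochondrial share was 10.5% in WT and 6.39% in LApcL, and 26.1% of deep WT barcodes lay over the mitochondrial limit against 11.8% in LApcL. The part of these differences in the results was not tested. The epithelial label was met: Epcam, a junction protein of all intestinal epithelial cells, was counted in 100% of kept cells of both libraries at 10000 UMIs per cell. Markers of immune cells, fibroblasts and blood vessels were near 0, with 98.4% to 99.5% of kept cells in either library holding no UMI of the 5 markers of each type.

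In the intestinal crypt, Wnt ligands keep stem cells dividing by stabilising β-catenin, which binds transcription factors of the Tcf and Lef family and switches on their targets. Apc is a scaffold of the complex that destroys β-catenin, so its loss leaves the pathway on without a ligand. Cells that leave the crypt normally lose this signal and become absorptive enterocytes or secretory goblet, enteroendocrine and Paneth cells, of which the Paneth cells return to the crypt base and depend on Wnt.

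The targeted genes were counted in both libraries. Apc (chromosome 18, 34220924 to 34322552 of mm10, forward strand) stood at 19.96 CPM (18.7 to 21.3) in WT and 95.4 CPM (93.3 to 97.6) in LApcL, with 88.5 CPM in LApc. CPM is the count per 1000000 UMIs of the summed kept cells. Lef1 (chromosome 3, 131110471 to 131224356, forward strand) stood at 0.961 CPM (0.706 to 1.28) in WT and 47.8 CPM (46.3 to 49.4) in LApcL, with 71.96 CPM in LApc. Both genes were therefore higher in LApcL than in WT, and 34.1% of LApcL cells held a Lef1 UMI at 10000 UMIs per cell against 0.993% in WT. These libraries read 3′ ends, and a transcript of a recombined allele is still counted where its 3′ end is intact, so these levels do not check either deletion.

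LApcL and WT cells differed by less than 2-fold in most genes and by far more in some. Of 9996 genes with a mean of at least 5 CPM over both libraries, 2574 (25.8%) were at least 2-fold higher in LApcL and 982 (9.82%) at least 2-fold lower, on the scale of log2 of CPM + 1, which understates the difference of low genes. The median log2 ratio over all these genes was 0.50, so a list is read against that value and not against 0. With median-of-ratios scaling, which sets the typical gene to no difference, 1173 (11.8%) were higher and 1673 (16.8%) lower, and the share of higher genes among those past 2-fold went from 72.4% to 41.2%. At least 16-fold, 159 genes were higher and 166 lower, and at least 64-fold, 23 were higher and 53 lower. The other scaling moved log2 ratios down by about 0.53, so that higher calls near 2-fold were lost and lower ones gained. A gene near 0 in one library passed the mean only through the other and had to differ, so for the lists made mostly of such genes the count past 2-fold describes their levels and supports no direction.

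**Figure D1:**
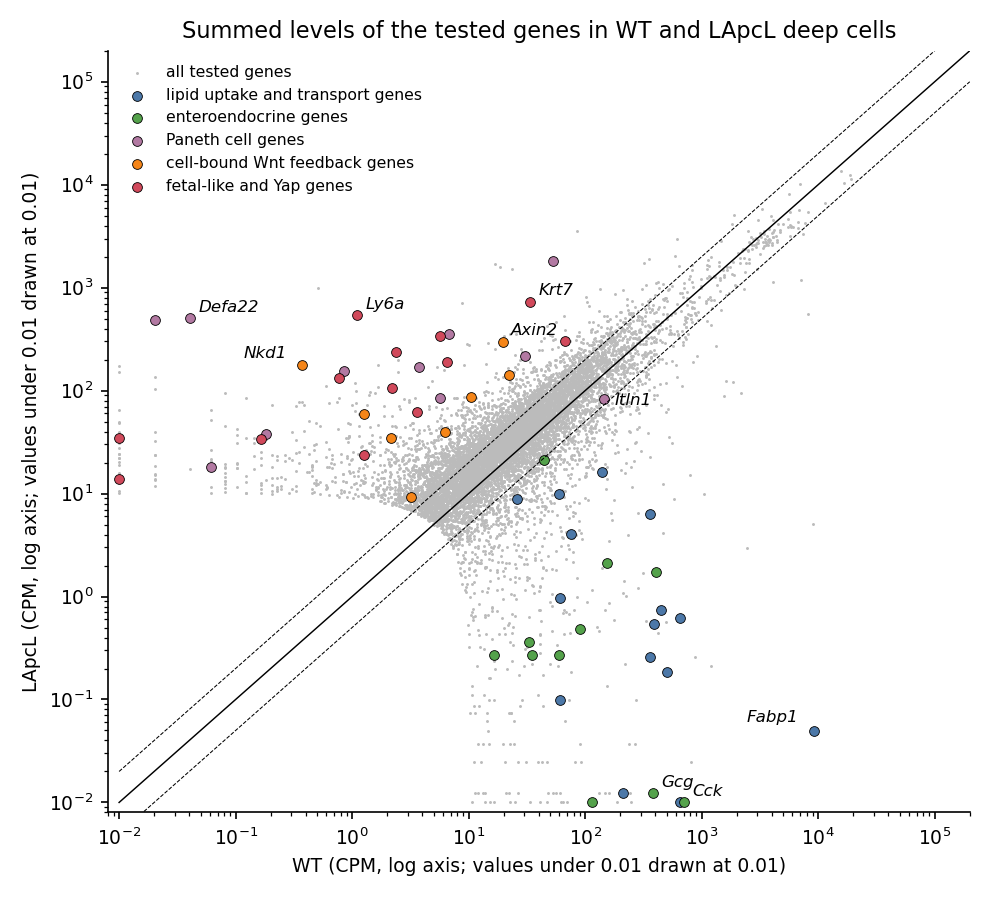
Summed level of each of the 9996 tested genes in WT (horizontal) and LApcL (vertical) in CPM on log axes, with values under 0.01 CPM drawn at 0.01; the solid line marks equal levels, the dashed lines a 2-fold difference, and colours mark 5 gene lists. Lipid uptake and enteroendocrine genes lie below the dashed band down to Fabp1 (9137 against 0.0497 CPM) and Cck (702 against 0 CPM), and Wnt feedback and fetal-like genes lie above it.

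The absorptive programme was present in WT cells and nearly absent from LApcL cells. Fabp1 (ENSMUSG00000054422), a fatty acid binding protein of enterocytes, stood at 9137 CPM (9109.98 to 9164) in WT, from 446743 UMIs, and at 0.0497 CPM (0.0135 to 0.127) in LApcL, from 4 UMIs. That is 183887-fold (71819 to 674900) lower, the lowest log2 ratio of the comparison among the genes named by rule. LApc had 0.231 CPM and thus sat with LApcL. In summed counts, fewer cells of a type and less RNA per cell cannot be told apart, so shares of cells are given further on for the genes the results turn on. Of the 16 genes for lipid uptake and transport, 15 passed the mean of 5 CPM and all 15 of these were at least 2-fold lower, as were 9.82% of all tested genes, and 1 of the 15 was at 10 CPM or more in both libraries. Their median log2 ratio was -7.71. Cd36 was the member under the mean (2.37 CPM in WT and 0.0745 CPM in LApcL).

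The lipid genes covered each step from uptake to export. Npc1l1, the cholesterol uptake protein of the gut lumen, stood at 60.9 CPM in WT and 0.0994 CPM in LApcL. Inside the cell, Fabp2 stood at 649 CPM in WT and 0.621 CPM in LApcL and the retinol binding protein Rbp2 at 508 CPM in WT and 0.186 CPM in LApcL, 2726-fold (1653 to 4871) lower. Mogat2 and Dgat2, which rebuild triglycerides, stood at 60.3 and 75.7 CPM in WT against 0.969 and 4.06 CPM in LApcL. The genes for chylomicron assembly were lower in the same direction. Apob stood at 363 CPM in WT and 0.261 CPM in LApcL, 1391-fold (909.9 to 2248) lower. Apoa4 was at 649 CPM in WT and had no UMI in LApcL, which makes it at least 17409-fold lower when 0 is set to 3 counts per library. Mttp, which loads lipid onto Apob, kept 6.38 CPM of 359 CPM. The smallest differences of the list were those of the fatty acid transporter Slc27a4 (26.1 CPM in WT and 8.93 CPM in LApcL) and the lipoprotein receptor Scarb1 (59.4 CPM in WT and 9.94 CPM in LApcL).

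Enzymes and structural proteins of the brush border, the microvilli that face the lumen, were lower to unequal degrees. Of 18 members 17 passed the mean, 15 of them were at least 2-fold lower, against 9.82% of all tested genes, and 2 lay between. The median log2 ratio was -3.02, and 6 of the 17 were at 10 CPM or more in both libraries. Sucrase-isomaltase, Sis, stood at 1202 CPM (1193 to 1212) in WT and 0.211 CPM (0.123 to 0.338) in LApcL, 5693-fold (3556 to 9774) lower. Intestinal alkaline phosphatase, Alpi, stood at 56.4 CPM in WT and 0.0124 CPM in LApcL, and the peptidase Enpep at 50.01 CPM in WT and 0.224 CPM in LApcL. These enzymes were thus close to 0 in LApcL, while Mgam, which also splits starch sugars, kept 71.5 of 237 CPM. Among the proteins of the microvillus core, the motor Myo1a stood at 36.7 CPM in WT and 5.83 CPM in LApcL and Eps8l3 at 289.8 CPM in WT and 43.9 CPM in LApcL, both lower. Vil1, which bundles actin, stood at 219.8 CPM in WT and 139.9 CPM in LApcL and Espn at 82.2 CPM in WT and 56.4 CPM in LApcL, both inside the 2-fold band, although with median-of-ratios scaling 18 of 18 members were lower. Cdhr2 and Cdhr5, the cadherins that link microvilli tip to tip, were lower, at 11.6 and 18.2 CPM in LApcL against 47.7 and 154 CPM.

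Carriers and metabolic enzymes of the enterocyte followed. All 9 of the nutrient and bile acid transporters that passed the mean, of 13, were at least 2-fold lower, against 9.82% of all tested genes. Only 1 of the 9 was at 10 CPM or more in both libraries. Against WT cells under the enterocyte limit 5 of 6 were lower, against 7.64% of all tested genes, and Slc10a2, the bile acid carrier, had a log2 ratio of 0.11. The glucose carrier Slc5a1 stood at 529 CPM in WT and 35.7 CPM in LApcL, the fructose carrier Slc2a5 at 132 CPM in WT and 0.4596 CPM in LApcL and the neutral amino acid carrier Slc6a19 at 33.5 CPM in WT with no UMI in LApcL. The enzymes of fructose use were lower as well. Khk, which phosphorylates fructose, stood at 1048 CPM in WT and 9.84 CPM in LApcL, 106-fold (99.3 to 114) lower, and Tkfc, which acts later on the route, at 796 CPM in WT and 15.1 CPM in LApcL. G6pc and Fbp1, which release glucose, stood at 70.4 and 209.6 CPM in WT and at 0 and 1.09 CPM in LApcL. In all, 5 of the 6 genes of fructose use and glucose release passed the mean, and 1 of the 5 was at 10 CPM or more in both libraries, so that the others passed through WT alone and had to be lower.

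Most detoxification genes were lower. Of 22 members, all past the mean, 20 were at least 2-fold lower, against 9.82% of all tested genes, and 2 lay between. Only 6 of the 22 were at 10 CPM or more in both libraries, with a list median log2 ratio of -5.61. The glutathione transferase Gsta1 stood at 2446 CPM (2432 to 2460.2) in WT and 2.99 CPM (2.63 to 3.396) in LApcL, 817-fold (720.2 to 931) lower. The cytochrome P450 Cyp3a11, which oxidises drugs and bile acids, stood at 425 CPM in WT and 0.447 CPM in LApcL, and the carboxylesterase Ces2a at 491 CPM in WT and 0.571 CPM in LApcL. The family was not lower as a whole. Gstp1 stood at 28.9 CPM in WT and 34.5 CPM in LApcL and Aldh1a1, which makes retinoic acid, at 70.3 CPM in WT and 52.7 CPM in LApcL. Adh6a kept the most of those that were lower, 19.3 of 43.3 CPM, followed by Gsta4 with 275 of 687 CPM.

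Of the 15 genes with the lowest log2 ratio among genes with at least 50 CPM in either library, most have been given or follow with the secretory cells. Others were Prap1, Leap2 and Ctrb1. Prap1, a secreted protein of the gut lining, stood at 874 CPM in WT and 0.261 CPM in LApcL, and Leap2, a small peptide that blocks the ghrelin receptor, at 268 CPM in WT and 0.0373 CPM in LApcL. Ctrb1, a chymotrypsinogen known from the pancreas, stood at 807 CPM in WT and 0.0248 CPM in LApcL and was counted in 41.3% of WT cells. Ctrb1 was the only one of 9 pancreatic acinar genes past the mean, and the other 8 had no UMI in WT.

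The 250 bases upstream of 4 of these genes are shown because they hold the letters of motifs that gut transcription factors are known to bind. Windows were taken from RefSeq (GRCm38.p6) and searched on both strands for TTTATNG, the core of Cdx sites, CAAAGTCCA, the core of Hnf4 sites, and CTTTGAT, the core of Tcf and Lef sites. The Hnf4 and the Tcf and Lef letters can overlap in a longer run. Capitals mark the letters found, and each line reads 5′ to 3′ in the direction of the gene.
Fabp1 (chr6:71199629-71199878, forward strand): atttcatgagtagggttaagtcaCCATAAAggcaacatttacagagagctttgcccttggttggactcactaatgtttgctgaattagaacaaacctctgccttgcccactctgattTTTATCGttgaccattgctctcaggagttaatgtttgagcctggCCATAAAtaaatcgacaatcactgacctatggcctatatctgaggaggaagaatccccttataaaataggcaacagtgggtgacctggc
Sis (chr3:72967864-72968113, reverse strand): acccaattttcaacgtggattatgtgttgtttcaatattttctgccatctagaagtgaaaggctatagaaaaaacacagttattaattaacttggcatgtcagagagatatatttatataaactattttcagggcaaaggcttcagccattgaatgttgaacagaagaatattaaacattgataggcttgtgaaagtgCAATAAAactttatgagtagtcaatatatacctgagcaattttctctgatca
Alpi (chr1:87101607-87101856, reverse strand): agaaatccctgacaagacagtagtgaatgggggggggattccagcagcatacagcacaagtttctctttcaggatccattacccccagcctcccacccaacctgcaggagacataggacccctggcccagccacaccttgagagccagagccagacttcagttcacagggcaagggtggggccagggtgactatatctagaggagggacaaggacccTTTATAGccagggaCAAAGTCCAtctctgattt
Cyp3a11 (chr5:145879855-145880104, reverse strand): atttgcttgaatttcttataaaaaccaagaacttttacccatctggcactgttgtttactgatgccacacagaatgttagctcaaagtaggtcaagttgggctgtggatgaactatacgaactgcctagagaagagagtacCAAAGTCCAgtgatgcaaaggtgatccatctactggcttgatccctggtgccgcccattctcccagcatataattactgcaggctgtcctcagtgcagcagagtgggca

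Fabp1 held the Cdx letters 3 times, with the nearest starting 89 bases before the start site, and Sis held them once, 52 bases before it. Alpi held Cdx letters 33 bases and Hnf4 letters 19 bases before its start, and Cyp3a11 held Hnf4 letters 109 bases before. Among the tested genes, 7979 of 9996 matched a window, and of these 7.67% held the Cdx letters, 0.426% the Hnf4 letters and 2.72% the Tcf and Lef letters. Among the genes at least 2-fold lower the shares were 12.2%, 1.44% and 2.88% of 763 matched genes. Over all 32851 RefSeq windows they were 9.81%, 0.384% and 3.21%. Of the lipid list, 10 of the 15 genes past the mean had a window and 5 of them held the Cdx letters, while 4 of 15 matched brush border genes did. A match describes the letters only, and binding was not measured.

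The transcription factors of the small intestine did not move as one group. Of 18 identity factors 17 passed the mean, with 4 at least 2-fold higher, 4 lower and 9 between, and a median log2 ratio of -0.11. The count of higher factors is near the 25.8% of all tested genes, and that of lower factors stands against 9.82%. With median-of-ratios scaling 2 were higher and 5 lower, against 11.8% and 16.8% of all tested genes. The genes for the Cdx and Hnf1 factors and for Hnf4a lay inside the band: Cdx2 stood at 96.3 CPM in WT and 162 CPM in LApcL and Hnf4a at 95.2 CPM in WT and 71.6 CPM in LApcL. Gata4, which is known to set jejunal against ileal identity, stood at 47.8 CPM (45.8 to 49.7) in WT and at 0.0124 CPM (0.000314 to 0.0692) in LApcL, from 1 UMI. The Gata factors thus parted, since Gata6 stood at 86.6 CPM in WT and 80.01 CPM in LApcL and Gata5 at 7.87 CPM in WT and 40.5 CPM in LApcL. Creb3l3, a regulator of lipid genes, stood at 161 CPM in WT and also had 1 UMI in LApcL, and Hnf4g, the gut paralog of Hnf4a, stood at 102.2 CPM in WT and 15.9 CPM in LApcL. Maf went from 47.9 CPM to 6.72 CPM, with 30.5 CPM in LApc. The reverse case was Isx, a homeobox factor that represses vitamin A uptake genes, with 1 UMI in WT and 135 CPM (133 to 138) in LApcL. Isx was 6611-fold (1186 to 261149) higher, an interval that reflects the single WT count.

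Many WT cells carried enterocyte markers, and LApcL cells almost none. At 10000 UMIs per cell the 10 enterocyte markers summed to a median of 129.5 UMIs in WT cells, with 57.9% (55.0% to 60.7%) of cells, 699 in number, at 100 UMIs or more, and 130 cells near that limit. The limit lay close to the WT median, and with a limit of 5% of UMIs 1053 of the 1208 WT cells were under it. In LApcL 88.3% of cells had no UMI of these markers, the highest cell had 18, and 0 of 1931 cells reached 100, which allows a share of up to 0.191%. This limit marks a range of a continuous score and not a type. The enterocyte gene UMIs reached further than enterocytes in WT. Sis was counted in 99.3% of the 699 enterocyte-rich cells, in 47.2% of the 36 goblet-rich and in 90.6% of the 32 enteroendocrine-rich WT cells, which should lack it. These shares were counted after each cell had been thinned to 10000 UMIs, from median depths of 40295, 32276 and 25290.5 UMIs. For Fabp1 these shares were 92.1%, 52.8% and 56.2%. A share of WT cells with a UMI of an enterocyte gene is therefore read as an upper value of the share of cells that express it.

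Because of this makeup, each count was also taken against the 509 WT cells under the enterocyte limit, which held 19042638 UMIs. Against these cells 1528 genes (15.2%) were at least 2-fold higher in LApcL and 766 (7.64%) lower, and the median log2 ratio of all tested genes was 0.31. Of the 982 genes lower against all WT cells, 656 remained lower, and of the 2574 higher, 1425 remained higher. Lipid genes were still lower in 14 of 15 members past the mean, with a median of -4.34, and brush border genes in 12 of 14, with -2.19. Several markers used for the limit are members of the lipid list, so part of this drop follows from the choice of cells. Fabp1 stood at 372 CPM in these cells and Apoa4 at 104 CPM. Gata4 was as high there as in all WT cells, 53.2 against 47.8 CPM, whereas Creb3l3 stood at 37.4 against 161 CPM. A pair of detoxification genes turned: against these cells Adh6a stood 1.09 and Aldh1a1 2.04 higher in LApcL on the log2 scale.

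**Figure D2:**
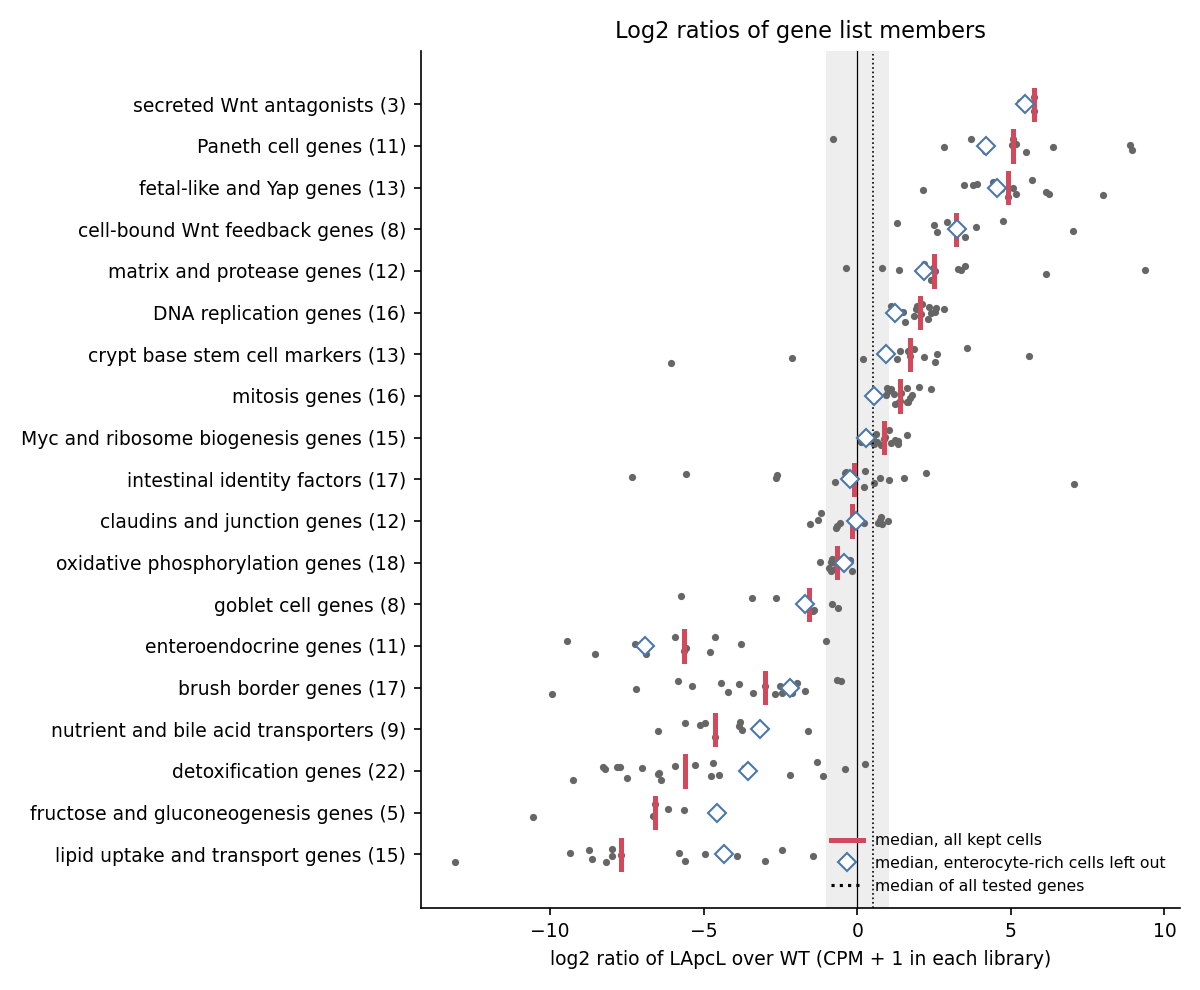
Log2 ratio of LApcL over WT (horizontal, CPM + 1 in each library) for the members of 19 gene lists that passed the mean of 5 CPM, one grey point per gene with the number of genes beside the list's name; red bars are medians over all kept cells, diamonds are medians after the enterocyte-rich WT cells were left out, the grey band spans 2-fold and the dotted line is the median of all tested genes, 0.50. The lipid median moves from -7.71 to -4.34 and the mitosis median from 1.40 to 0.55, while the fetal-like median stays at 4.56 against 4.91.

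Genes that Wnt signalling switches on to restrain itself were higher in LApcL. Of 9 cell-bound feedback genes, 8 passed the mean and all 8 were at least 2-fold higher, against 25.8% of all tested genes, and 3 of the 8 were at 10 CPM or more in both libraries, with a median log2 ratio of 3.22. Axin2, a scaffold of the β-catenin destruction complex, stood at 19.6 CPM (18.4 to 20.9) in WT and 299 CPM (295 to 303) in LApcL, 15.3-fold (14.3 to 16.3) higher. Nkd1, which acts on Dishevelled, stood at 0.368 CPM (0.218 to 0.582) in WT and 179 CPM (176 to 182) in LApcL, 485-fold (307 to 819) higher. The ubiquitin ligases Rnf43 and Znrf3, which remove Wnt receptors, stood at 22.3 and 6.24 CPM in WT and at 140.3 and 40.1 CPM in LApcL. Both of these ligases were thus higher by less than Nkd1 was. Tnfrsf19, known as Troy, stood at 1.27 CPM in WT and 59.3 CPM in LApcL, Apcdd1 at 2.15 CPM in WT and 34.8 CPM in LApcL and the transcription factor Sp5 at 10.5 CPM in WT and 86.1 CPM in LApcL. Kremen1, a co-receptor of Dickkopf proteins, was the member nearest the band, at 3.19 CPM in WT and 9.19 CPM in LApcL. Nkd2 did not pass the mean in either library (0.184 CPM in WT and 0.224 CPM in LApcL). Without the enterocyte-rich WT cells 7 of the 8 were past 2-fold, with Kremen1 at 0.94.

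Of the 10 secreted antagonists 7 were under the mean, and the other 3 were near 0 in WT and passed only through LApcL. Notum, an enzyme that cleaves a lipid from Wnt ligands, stood at 0.389 CPM (0.234 to 0.607) in WT, 302 CPM in LApc and 73.3 CPM (71.4 to 75.2) in LApcL. Dkk2, a ligand of Wnt co-receptors, stood at 0.102 CPM in WT and 42.7 CPM in LApcL and Sfrp5, which binds Wnts, at 0.327 CPM in WT and 71.2 CPM in LApcL. Among members under the mean, Wif1 stood at 0.0205 CPM in WT and 7.44 CPM in LApcL with 125 CPM in LApc, and Dkk3 at 0.0205 CPM in WT and 2.91 CPM in LApcL with 81.7 CPM in LApc. With no filter on the mean, 6 of the 10 antagonists were at least 2-fold higher, against 15% of the 22847 genes then counted.

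Wnt ligands and the genes for the core of the pathway differed member by member. Of the 8 genes of the ligand list, which also holds the R-spondin gene Rspo1, Wnt6 and Wnt10a passed the mean, both through LApcL alone. Wnt6 had no UMI in WT and 173 CPM (169.9 to 176) in LApcL, at least 2815-fold higher, and was counted in 61.99% of LApcL cells. Wnt10a had no UMI in WT and 24.4 CPM in LApcL, at least 398-fold higher. Wnt3, the ligand that Paneth cells are known to supply to stem cells, stood at 1.92 CPM in WT and 3.39 CPM in LApcL and stayed under the mean. Of the Tcf and Lef factors, Lef1 and Tcf7 were higher, Tcf7 at 3.5995 CPM in WT and 22.6 CPM in LApcL, and Tcf7l2, the main factor of the normal crypt, stood at 64.9 CPM in WT and 94.7 CPM in LApcL. In the destruction complex Ctnnb1, the gene for β-catenin, stood at 157 CPM in WT and 352 CPM in LApcL. With Apc it was 1 of 2 among 7 members past the mean to lie beyond 2-fold, near the 25.8% of all tested genes that were higher. Ctnnb1 lost this call with median-of-ratios scaling. Gsk3b (123 CPM in WT and 177 CPM in LApcL) and Axin1 (19.2 CPM in WT and 24.6 CPM in LApcL) lay inside the band.

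Of 14 Wnt target and adenoma genes, 11 passed the mean and 8 were at least 2-fold higher, against 25.8% of all tested genes, or 7 higher and 1 lower with median-of-ratios scaling. Of the 11, 7 were at 10 CPM or more in both libraries. Mmp7, a matrix protease that activates defensins, had the highest log2 ratio of all named genes, 9.38, at 0.511 CPM (0.331 to 0.755) in WT, 481 CPM in LApc and 1003 CPM (996 to 1010.1) in LApcL. Ccnd1, a cyclin of cell cycle entry, stood at 47.1 CPM in WT and 421 CPM in LApcL, 8.93-fold (8.56 to 9.32) higher. Cd44 stood at 6.54 CPM in WT and 67.7 CPM in LApcL and Prox1, a homeobox factor, at 2.495 CPM in WT and 152 CPM in LApcL. Myc did not pass 2-fold: it stood at 34.4 CPM (32.8 to 36.1) in WT and 63.7 CPM (61.97 to 65.5) in LApcL, 1.85-fold (1.75 to 1.96) higher, a log2 ratio of 0.87 against the median of 0.50 for all genes. Vegfa and Ccnd2 also lay inside the band, at 70.1 and 219 CPM in LApcL against 73.4 and 325 CPM in WT. Sox17 was under the mean, with no UMI in WT and 3.404 CPM in LApcL.

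The upstream windows of the feedback gene Sp5 and the Paneth gene Defa22 are shown because they hold the Tcf and Lef letters, in capitals.
Sp5 (chr2:70474673-70474922, forward strand): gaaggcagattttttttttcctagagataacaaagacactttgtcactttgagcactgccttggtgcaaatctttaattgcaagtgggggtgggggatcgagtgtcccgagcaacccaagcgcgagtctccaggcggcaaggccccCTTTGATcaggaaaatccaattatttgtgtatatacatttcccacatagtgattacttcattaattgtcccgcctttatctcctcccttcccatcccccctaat
Defa22 (chr8:21162027-21162276, forward strand): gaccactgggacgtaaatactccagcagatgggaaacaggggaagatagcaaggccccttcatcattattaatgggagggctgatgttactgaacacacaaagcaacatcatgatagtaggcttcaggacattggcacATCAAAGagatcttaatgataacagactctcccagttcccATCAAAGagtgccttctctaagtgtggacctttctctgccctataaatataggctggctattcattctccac

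Sp5 held the letters once, starting 104 bases before its start, and Defa22 held them at 112 and 72 bases on the other strand. Cdx letters in these windows are not in capitals. The window of Defa21 was identical to that of Defa22 in 250 of 250 bases, and the 2 genes are near-identical copies whose UMIs the counting could split, so their levels are uncertain one by one. Among the genes at least 2-fold higher, 2.97% of 2018 matched genes held the Tcf and Lef letters, against 2.72% of all tested genes. Of the cell-bound feedback list 2 of 5 matched genes held them, of the Paneth list 3 of 6, among them the identical Defa21 and Defa22, and of the brush border list 2 of 15. The Cdx letters were in 4 of the 6 Paneth windows. The Hnf4 letters were found in 0.0991% of the higher genes.

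Stem cell markers were higher in LApcL with a pair of exceptions. All 13 crypt base markers passed the mean, 10 were at least 2-fold higher, 2 lower and Rgmb lay between (20.9 CPM in WT and 23.8 CPM in LApcL), against 25.8% and 9.82% of all tested genes, with a median log2 ratio of 1.72. Lgr5, the R-spondin receptor that marks the stem cells from which Cre was driven, stood at 13.9 CPM (12.9 to 15.04) in WT, 34.7 CPM in LApc and 89.98 CPM (87.9 to 92.1) in LApcL, 6.45-fold (5.96 to 6.99) higher. Ascl2, a transcription factor of stem cell fate, stood at 1.08 CPM in WT and 98.7 CPM in LApcL, 91.1-fold (69.6 to 122) higher, and Smoc2 at 66.8 CPM in WT and 389.9 CPM in LApcL. Olfm4 went the other way. This secreted glycoprotein, an abundant marker of normal crypt base cells, stood at 72.1 CPM (69.7 to 74.5) in WT and 0.0994 CPM (0.0429 to 0.196) in LApcL, from 8 UMIs, 725-fold (368 to 1681) lower, with 0.627 CPM in LApc. The water channel Aqp4 stood at 12.5 CPM in WT and 2.099 CPM in LApcL. Against WT cells under the enterocyte limit 6 of 13 were higher, against 15.2% of all tested genes, with Lgr5 at 31.9 CPM in those cells and a log2 ratio of 1.47, Ascl2 at 4.89 and Smoc2 at 1.51. Olfm4 was then further apart, at 172 CPM in those WT cells.

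The 5 genes known from stem cells outside the crypt base differed less. Lrig1, a brake on ErbB receptors, stood at 30.7 CPM in WT and 94.95 CPM in LApcL. It was the only member of 4 past the mean to pass 2-fold, near the 25.8% of all tested genes. With secretory-rich cells left out 3 of the 4 passed, against 27.2% of all tested genes, as the median log2 ratio went from 0.94 to 1.03. Hopx stood at 229 CPM in WT and 448 CPM in LApcL and Bmi1 at 9.43 CPM in WT and 18.7 CPM in LApcL. In single cells, the crypt base list summed to a median of 4 UMIs per 10000 in WT and 21 in LApcL, and 11.2% of WT cells but no LApcL cell had none.

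Genes of the fetal-like state, in which injured or transformed gut cells resemble the fetal epithelium and Yap is active, were mostly near 0 in WT. Of 14 members 13 passed the mean, at a median log2 ratio of 4.91, and most of these passed through LApcL alone, so that their count supports no direction. Krt7 and Ccn1, the 2 at 10 CPM or more in both libraries, were higher, against 25.8% of all tested genes. Ly6a, also known as Sca-1, stood at 1.104 CPM (0.8297 to 1.44) in WT, 169 CPM in LApc and 538 CPM (533 to 543) in LApcL, 487-fold (373 to 648) higher. Clu, a secreted chaperone of regenerating crypts, stood at 2.37 CPM in WT and 239 CPM in LApcL and Anxa1, an annexin, at 5.71 CPM in WT and 342 CPM in LApcL. Krt7, a keratin of ducts and bladder, stood at 33.6 CPM in WT and 734 CPM in LApcL, 21.8-fold (20.8 to 22.9) higher. The classical Yap targets Ccn1, Ccn2 and Ankrd1 were among them. Ccn1 stood at 67.2 CPM in WT and 300.4 CPM in LApcL and Ccn2 at 3.5995 CPM in WT and 62.03 CPM in LApcL, and Ankrd1 had no UMI in WT and 34.6 CPM in LApcL, at least 564-fold higher. Gja1 was the member under the mean. The difference was spread over cells: the list summed to a median of 1 UMI per 10000 in WT and 21 in LApcL, and 47.6% of WT cells and 0.259% of LApcL cells had none. Against the WT cells under the enterocyte limit the median was 4.56.

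**Figure D3:**
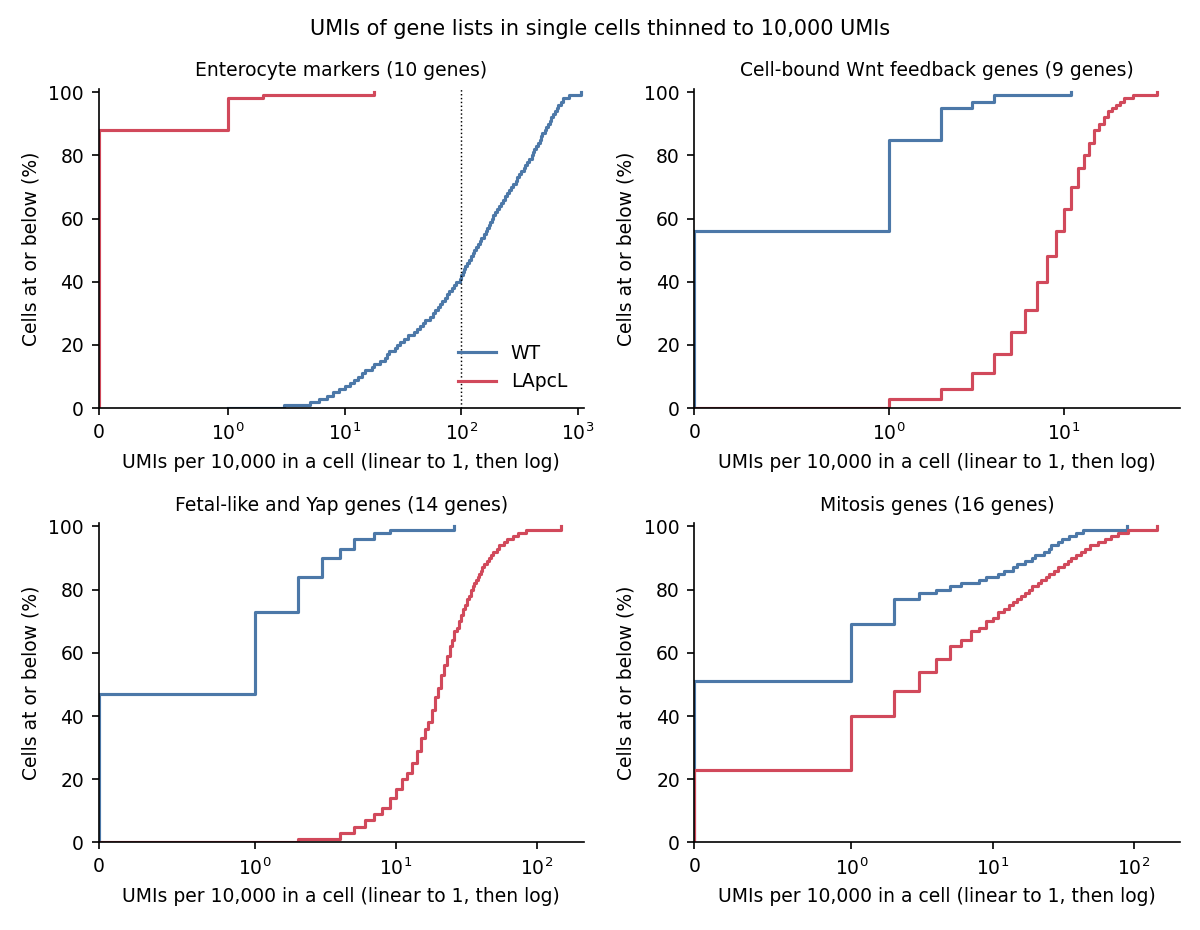
Cumulative share of cells (vertical, %) by UMIs of a gene list in a cell thinned to 10000 UMIs (horizontal, linear to 1 and log above), for WT in blue and LApcL in red; the dotted line in the first panel marks the limit of 100 UMIs. 88.3% of LApcL cells lie at 0 enterocyte marker UMIs, and the medians of WT and LApcL cells are 0 and 9 for Wnt feedback genes, 1 and 21 for fetal-like genes and 0 and 3 for mitosis genes.

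In summed levels Paneth genes were higher in LApcL and enteroendocrine genes lower. Most members of either list passed the mean mainly through a single library, so their counts past 2-fold support no direction. Of 13 Paneth genes 11 passed the mean, 10 were at least 2-fold higher, against 25.8% of all tested genes, and Itln1 lay between (146 CPM in WT and 83.7 CPM in LApcL), with a median log2 ratio of 5.07, and 3 were at 10 CPM or more in both libraries. Defa24, an antimicrobial peptide of the alpha-defensin family, stood at 53.2 CPM (51.2 to 55.3) in WT, 327 CPM in LApc and 1825 CPM (1816 to 1835) in LApcL. Defa22 had 2 UMIs in WT and 509.6 CPM (505 to 515) in LApcL, and lysozyme, Lyz1, stood at 30.2 CPM in WT and 218 CPM in LApcL. Alpha-defensins, and Lyz1 with Lyz2, are close copies, so a single member's level is uncertain. These counts came from few cells. In LApcL the 5% of cells with the most Defa22 held 99.7% of its UMIs, against 30.4% for Ly6a of the fetal-like list. Cells with at least 100 of 10000 UMIs from 7 Paneth markers numbered 73 of 1931 in LApcL, 3.78% (2.97% to 4.73%), and 8 of 1208 in WT, 0.662% (0.286% to 1.301%). In the other 1858 LApcL cells Defa22 was counted in 4.898%, which is not read as expression, and these cells held 1.23% of its UMIs. Defa22 is among the markers of this limit, so its low level outside follows in part from the choice of cells. With the 70 WT and 84 LApcL cells past any of the 3 secretory limits left out, 3 Paneth genes passed the mean, of which 1 was higher and 2 were lower, against 27.2% and 9.84% of all tested genes, and Lyz1 turned to a log2 ratio of -1.03. Lyz1 and other Paneth genes are markers of these limits, so this fall follows in part from the choice of cells and supports no direction.

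Goblet genes were lower in sum while goblet-rich cells had a like share in both libraries. Of 13 members 8 passed the mean and 6 were at least 2-fold lower, against 9.82% of all tested genes, with a median log2 ratio of -1.56. The mucin Muc2 stood at 82.2 CPM (79.7 to 84.8) in WT and 12.2 CPM (11.4 to 12.96) in LApcL, and the lectin Zg16 at 53.2 CPM in WT and 0.0124 CPM in LApcL. Tff3 and Spink4, secreted with the mucus, lay inside the band, at 358 and 227 CPM in LApcL against 548 and 407 CPM in WT, but with median-of-ratios scaling all 8 members past the mean were lower. The share of cells past the limit of 100 UMIs of goblet markers was 2.98% (2.096% to 4.102%) in WT, 36 cells, and 3.004% (2.29% to 3.87%) in LApcL, 58 cells. These cells were not alike in the 2 libraries. In LApcL 48 cells passed both the goblet and the Paneth limit, 82.8% of its goblet-rich and 65.8% of its Paneth-rich cells. In WT 5 cells passed both, 13.9% of its goblet-rich and 62.5% of its 8 Paneth-rich cells. Muc2 was counted in 79.5% of the Paneth-rich LApcL cells and in 1.71% of LApcL cells under the goblet limit, after thinning to 10000 UMIs from median depths of 24420 and 32964 UMIs. Muc2 is among the markers of the goblet limit, so the second share is low in part by the choice of cells. No doublets were removed. With the cells of the highest Scrublet doublet scores left out, 129 of the WT and 363 of the LApcL cells, none of the 266 listed or named genes past 2-fold turned its direction. That bears on the summed ratios only, and whether the cells past both limits were doublets was not tested.

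Enteroendocrine genes, for hormones and their granules, passed the mean in 11 of 15 members, 10 of them through WT with under 10 CPM in LApcL, and had a median log2 ratio of -5.64. Cck, cholecystokinin, stood at 702 CPM (695 to 709.7) in WT and had no UMI in LApcL, at least 18844-fold lower. Gcg, proglucagon, stood at 379.9 CPM in WT with 1 UMI in LApcL, and the granule protein Chgb at 409 CPM in WT and 1.73 CPM in LApcL. Secretin, Sct, differed least, at 44.7 CPM in WT and 21.4 CPM in LApcL. In WT these counts were held by few cells: 32 of 1208 cells, 2.65% (1.82% to 3.72%), were past the limit of 100 UMIs and held 99.2% of the Cck UMIs, against 1 of 1931 cells in LApcL, 0.0518% (0.00131% to 0.288%). Cck is among the markers of this limit, so the share of its UMIs in these cells follows in part from their choice. Neurog3, the factor that starts this fate, stood under the mean in both, at 4.42 CPM in WT and 1.64 CPM in LApcL. Tuft cell genes were at or under 0.634 CPM in WT and 0.882 CPM in LApcL for 9 of 10 members, and Ptgs1 was the exception, at 0.0205 CPM in WT and 15.01 CPM in LApcL.

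Genes for DNA replication and cell division were higher in LApcL, both by less once enterocyte-rich WT cells were left out. All 16 DNA replication genes were at least 2-fold higher, against 25.8% of all tested genes, with a median log2 ratio of 2.04. Mcm2, a subunit of the replicative helicase, stood at 9.31 CPM in WT and 53.03 CPM in LApcL, and Cdc6, which loads it, at 3.01 CPM in WT and 27.6 CPM in LApcL. Of 16 mitosis genes 14 were at least 2-fold higher, with a median of 1.40, and Birc5 (53.4 CPM in WT and 103 CPM in LApcL) and Hmmr (27.7 CPM in WT and 55.4 CPM in LApcL) lay just inside. Mki67, the source of the Ki-67 antigen, stood at 82.5 CPM (80.02 to 85.1) in WT and 217 CPM (213 to 219.8) in LApcL, 2.62-fold (2.54 to 2.72) higher. Both medians fell by a like amount once the enterocyte-rich WT cells were left out, which took most mitosis genes under the threshold: 11 of 16 replication genes and 3 of 16 mitosis genes were then past 2-fold, with medians of 1.24 and 0.55 against 0.31 for all genes. Of all tested genes 15.2% were higher in that comparison, near the share of the mitosis list. With median-of-ratios scaling 13 replication genes and 7 mitosis genes were past 2-fold, against 11.8% of all tested genes. The share of cells with at least 10 of 10000 UMIs from the mitosis list was 15.2% in WT, 28.9% (24.98% to 33.0%) in WT cells under the enterocyte limit and 29.7% (27.7% to 31.8%) in LApcL. For the replication list the shares were 10.4%, 19.8% (16.5% to 23.6%) and 45.0% (42.8% to 47.3%).

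Cell cycle inhibitors and p53 targets were mixed. Of 14 members 5 were at least 2-fold higher, 1 lower and 8 between, close to the shares of all tested genes (25.8% and 9.82%), and against WT cells under the enterocyte limit 3 were higher. Cdkn2a, the locus of p16 and p19Arf, stood at 0.102 CPM in WT and 17.7 CPM in LApcL, and Phlda3 at 4.602 CPM in WT and 70.8 CPM in LApcL. Cdkn2b, the neighbour of Cdkn2a and a brake on Cdk4, stood at 70.01 CPM in WT and 12.6 CPM in LApcL, and Cdkn1a, which encodes p21, at 238 CPM in WT and 317 CPM in LApcL.

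Genes for ribosomes and energy metabolism lay mostly inside the 2-fold band. None of 81 cytosolic ribosomal protein genes past the mean was beyond 2-fold, with a median log2 ratio of -0.21, while with median-of-ratios scaling 13 were lower. Their summed share of UMIs was 26.1% in WT and 22.1% in LApcL. Of 15 ribosome biogenesis genes past the mean 6 were at least 2-fold higher, against 25.8% of all tested genes, with a median of 0.87. With median-of-ratios scaling 1 was, and against WT cells under the enterocyte limit none was, with a median of 0.27. Nuclear genes of oxidative phosphorylation were each lower in LApcL by up to 2.34-fold (Uqcrq, 1107 CPM in WT and 472 CPM in LApcL), with 1 of 18 past 2-fold and a median of -0.65, whereas 15 of 18 were past it with median-of-ratios scaling. With median-of-ratios scaling 15 of the 18 passed 2-fold. The mitochondrially encoded genes were used in choosing the cells and are not read further. In glycolysis the carrier Slc2a1 stood at 15.8 CPM in WT and 66.5 CPM in LApcL and Hk2, a hexokinase, at 18.9 CPM in WT and 62.7 CPM in LApcL, whereas Ldha (1652 CPM in WT and 1494.8 CPM in LApcL) lay inside the band.

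Ligands of the EGF receptor differed from one another. Areg, amphiregulin, a ligand of the EGF receptor, stood at 1549 CPM (1538 to 1559.8) in WT, 114 CPM in LApc and 88.7 CPM (86.6 to 90.7) in LApcL, 17.5-fold (17.05 to 17.9) lower. Its neighbour Ereg stood at 44.4 CPM in WT and 3.71 CPM in LApcL, while the ligands Hbegf (278 CPM in WT and 320.5 CPM in LApcL) and Btc (29.6 CPM in WT and 23.8 CPM in LApcL) lay inside the band. Areg remained lower against WT cells under the enterocyte limit, where it stood at 891 CPM. Among the receptors Erbb2 was higher, at 10.6 CPM in WT and 34.3 CPM in LApcL, and Egfr stood at 5.399 CPM in WT and 7.9996 CPM in LApcL.

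Of 8 genes of the Bmp list past the mean 5 were higher and 2 lower, against 25.8% and 9.82% of all tested genes, and with median-of-ratios scaling 3 were higher and 2 lower of 7. Of the 8, 4 were at 10 CPM or more in both libraries. Id1 and Id3, which Bmp signals switch on and which block transcription factors, were higher, Id1 at 28.2 CPM in WT and 253 CPM in LApcL and Id3 at 51.5 CPM in WT and 340.3 CPM in LApcL. The ligands did not follow 1 direction: Bmp7 stood at 5.56 CPM in WT and 16.6 CPM in LApcL, Bmp2 at 17.9 CPM in WT and 7.801 CPM in LApcL and Bmp3 at 14.8 CPM in WT and 0.658 CPM in LApcL. Of the Notch and fate genes 4 of 7 past the mean were higher, against the same 25.8%, and 2 were higher and 1 lower with median-of-ratios scaling. Of these 7, 3 were at 10 CPM or more in both libraries. Notch2 stood at 1.55 CPM in WT and 28.5 CPM in LApcL and Notch1 at 14.3 CPM in WT and 39.7 CPM in LApcL, with the target Hes1 at 308 CPM in WT and 503 CPM in LApcL. Of the Eph receptors, which sort cells along the crypt, Ephb2 and Ephb3 stood at 22.7 and 3.52 CPM in WT and 50.7 and 13.2 CPM in LApcL. Epha4 had the widest difference of that list, at 2.54 CPM in WT and 71.2 CPM in LApcL, and the ligand Efna1 was lower, at 80.4 CPM in WT and 27.97 CPM in LApcL. Of 10 members past the mean 6 were higher and 2 lower, against 25.8% and 9.82% of all tested genes, and 4 and 2 with median-of-ratios scaling. Of the 10, 5 were at 10 CPM or more in both libraries. Against WT cells under the enterocyte limit 3 were higher and 0 lower, against 15.2% and 7.64%, and Efna1 and Ephb2 were inside the band. Bmp2 and Notch1 were inside it there as well, at log2 ratios of -0.69 and 0.74, and the Notch and fate list had 3 higher and 2 lower of 8.

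Several of the 15 highest log2 ratios belonged to membrane and secreted proteins outside the Wnt pathway. Ifitm1 and Ifitm3, small membrane proteins that restrict viral entry, stood at 0.0409 and 16.8 CPM in WT and 505 and 1694 CPM in LApcL. LApc had 1710.1 and 1729 CPM. Of the interferon list they belong to, 5 of 8 members past the mean were higher and 2 lower, against 25.8% and 9.82% of all tested genes. Of the 8, 5 were at 10 CPM or more in both libraries. Ifitm2 (101.8 CPM in WT and 814 CPM in LApcL) and Ly6e (21.7 CPM in WT and 165 CPM in LApcL) were among the higher, while Ifit1 (14.7 CPM in WT and 1.205 CPM in LApcL) and Irf7 (9.69 CPM in WT and 3.69 CPM in LApcL) were lower. Against WT cells under the enterocyte limit 5 of 6 members past the mean were higher, against 15.2%, and none lower, since Ifit1 and Irf7 no longer passed the mean. The antimicrobial lectins Reg3b and Reg3g stood at 18.7 and 9.71 CPM in WT and 1600.2 and 287 CPM in LApcL. Their relatives Reg1 and Reg3a were lower, at 8.19 and 1.304 CPM in LApcL against 89.3 and 35.3 CPM in WT, but neither was called lower against WT cells under the enterocyte limit, where they stood at 10.2 and 3.05 CPM. Krt4, a keratin of stratified epithelia, stood at 0.143 CPM in WT and 216 CPM in LApcL, the collagen gene Col14a1 had 1 UMI in WT and 104 CPM in LApcL, and the RNA-binding protein gene Rbms3 stood at 0.0818 CPM in WT and 94.3 CPM in LApcL. Defa17, Defa21 and Defa36 completed the 15, with 154, 481 and 151 CPM in LApcL.

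The matrix list was higher in 10 of 12 members past the mean, against 25.8% of all tested genes, but only 3 of the 12 were at 10 CPM or more in both libraries. The laminin chain Lamb3 stood at 5.64 CPM in WT and 37.4 CPM in LApcL, and the laminin receptor chain Itgb4 at 11.8 CPM in WT and 56.5 CPM in LApcL. Timp2, an inhibitor of matrix proteases, stood at 0.593 CPM in WT and 111 CPM in LApcL. Among keratins, Krt20 of differentiated surface cells stood at 72.95 CPM in WT and 2.92 CPM in LApcL and Krt18 at 354 CPM in WT and 1887 CPM in LApcL, while Krt8, the partner of Krt18, lay inside the band at 1135 CPM in WT and 1860.3 CPM in LApcL. Junction genes lay mostly inside the band as well, 9 of 12, with Cdh1, E-cadherin, at 148 CPM in WT and 239.7 CPM in LApcL. The other 3 were lower, against 9.82% of all tested genes. With median-of-ratios scaling 6 of 12 were lower, against 16.8%.

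Shares of cells showed which differences were held by most cells and which by a few. At 10000 UMIs per cell Mmp7 was counted in 93.3% of LApcL cells and 0.497% of WT cells, Axin2 in 90.3% and 15.1%, and Krt7 in 97.3% and 21.9%. Fewer cells held the others: Lgr5 was counted in 52.1% and 9.603%, Ly6a in 64.5% and 0.579%, and Notum in 49.5% and 0.414%. The 699 enterocyte-rich WT cells held Lgr5 in 1.86% and Axin2 in 8.73%, and the other 509 WT cells in 20.2% and 23.97%, at median depths of 40295 and 35454 UMIs. As the enterocyte limit marks a range of a score and not a type, these shares are not a background rate. In the other direction Sis was counted in 88.9% of WT and 0.414% of LApcL cells and Gata4 in 37.8% and 0.0518%. Areg lay between these cases, with a UMI in 87.997% of WT and 26.3% of LApcL cells. Muc2 had about the same share in both, 4.55% and 4.19%, although its summed level was 6.76-fold lower.

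**Figure D4:**
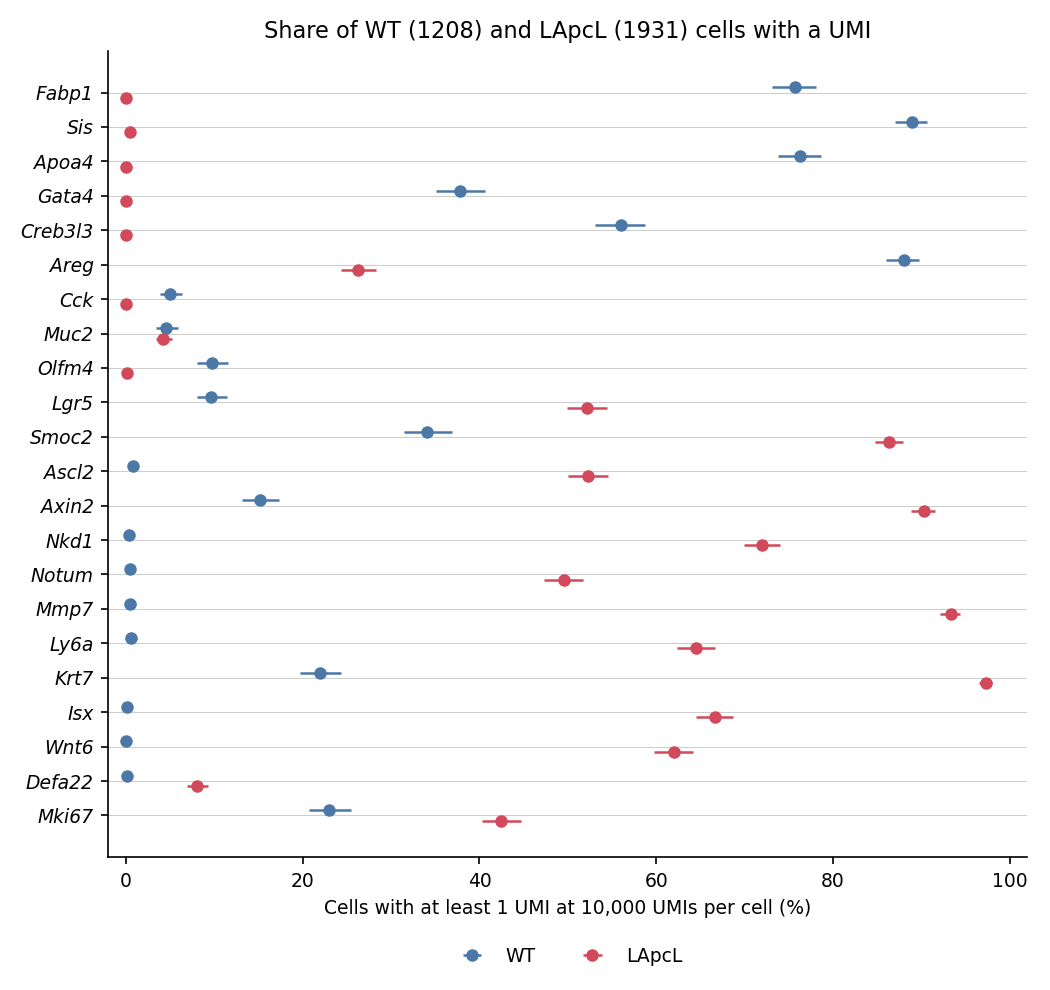
Share of WT (blue) and LApcL (red) cells with at least 1 UMI of each gene shown after each cell was thinned to 10000 UMIs (horizontal, %); points are shares and bars exact 95% intervals, which cover counting error only. Mmp7 (93.3%), Krt7 (97.3%) and Axin2 (90.3%) reach most LApcL cells, Defa22 reaches 8.03%, and Muc2 is at 4.55% and 4.19%.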

How the data were processed

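Droplet 3′ single-cell RNA-seq of small intestinal organoids was analysed in 1 library per genotype (WT, LApc, LApcL). The values are UMI counts per gene and barcode, deposited by the authors as filtered matrices. The submitters' processing notes name Cell Ranger 2.1.1 and mm10 (GRCm38), while the matrix file headers name cellranger 6.0.1, and the kit was version 2 or 3 of the 10x Genomics 3′ kit. The study's own later filters (mitochondrial share, numbers of genes and doublet calls) were not rebuilt here, apart from its 20% mitochondrial limit.

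Barcodes in 1 library only, with at least 10000 UMIs and at most 20% mitochondrial UMIs, were kept, and their UMIs were summed per library and scaled to CPM. Ratios used log2 of CPM + 1 for genes with a mean of at least 5 CPM, and genes past 2-fold were counted. With 1 library per group no test was run. Levels have exact Poisson, ratios conditional binomial and shares Clopper-Pearson intervals at 95%. Genes at 0 were set to 3 counts per library for bounds. Shares and list sums per cell used cells thinned to 10000 UMIs, and marker limits were 100 UMIs per cell. The named genes were the 15 highest and 15 lowest log2 ratios among genes with at least 50 CPM in either library, beside members of the gene lists. The members and lists were chosen with earlier results of these data known. Gene coordinates are those of GRCm38, and promoter windows come from RefSeq. Statements were checked under other cell limits, pseudocounts, filters, scalings, Scrublet scores and cell subsets. Python 3.11.15, numpy 2.4.6, scipy 1.17.1, pandas 2.3.3, scanpy 1.11.5 and matplotlib 3.10.9 were used, and the code was tested on simulated data. Some members of the lists and named genes are not reported here by name.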

Additional observations from a re-analysis of the deposited data

How the results depend on the processing

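Pseudocounts and filters cannot turn a log2 ratio. Of the 266 listed or named genes past 2-fold, 3 turned, each with cells left out. Genes inside the 2-fold band are outside that count, and of these Aldh1a1 turned with enterocyte-rich cells left out. With enterocyte-rich cells left out, 1528 genes were at least 2-fold higher in place of 2574. Crypt base markers higher went from 10 to 6 and mitosis genes higher from 14 to 3. Goblet genes lower went from 6 of 8 past the mean to 10 of 12. Adh6a turned to a log2 ratio of 1.09 and Slc10a2 to 0.11. Leaving out those cells lowers enterocyte genes in WT by construction and gives the other WT cells more weight. Summed goblet genes went from 1975 to 3633 CPM in WT and stayed at 859 CPM in LApcL. With secretory-rich cells left out Lyz1 turned to -1.03, and as Lyz1 is a marker used to choose those cells, this follows in part by construction. A pseudocount of 10 CPM gave 1328 higher genes, a mean of 20 CPM gave 1318 higher and 582 lower, and no filter gave 1518 lower and 6 secreted antagonists higher. Median-of-ratios scaling gave 1173 higher, 1673 lower and 7 mitosis genes higher, 15 oxidative phosphorylation genes lower in place of 1 and 1 ribosome biogenesis gene higher in place of 6. Of the 15 highest named genes, 8 were kept with a minimum of 200 CPM and 8 with a pseudocount of 10 CPM. No paired analysis was possible because each genotype had 1 library and the labels give no replicate numbers. Without replicates, no difference can be set against the spread between mice or cultures.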

Other observations

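A further look at gene families, chosen after their values had been seen, covered several groups of transcription factors. Of 39 Hox genes 33 had a UMI and 7 passed the mean of 5 CPM, and these 7 were Hoxb3 to Hoxb9, neighbours in 1 cluster, which were near 0 in WT and passed through LApcL alone. Hoxb9 stood at 1.06 CPM in WT and 119 CPM in LApcL and Hoxb3 at 0.225 CPM in WT and 21.3 CPM in LApcL, and LApc had 146 and 22.7 CPM. Tead2, a DNA-binding partner of Yap, stood at 0.736 CPM in WT and 78.2 CPM in LApcL and Wwtr1, the Yap paralog Taz, at 3.25 CPM in WT and 48.6 CPM in LApcL, while Yap1 lay just inside the 2-fold band at 20.9 CPM in WT and 42.7 CPM in LApcL. Of the Sox genes, Sox21 stood at 1.002 CPM in WT and 71.9 CPM in LApcL and Sox11 at 0.0614 CPM in WT and 19.96 CPM in LApcL, and both, like Tead2, passed the mean through LApcL alone, while Sox4 (133 CPM in WT and 965 CPM in LApcL) and Sox9 (69.9 CPM in WT and 223 CPM in LApcL) were already plain in WT. Irx5 stood at 0.777 CPM in WT and 84.3 CPM in LApcL. These values are descriptions with no test.

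The same look covered other families. The small calcium-binding proteins S100a6 and S100a11 stood at 84.9 and 23.5 CPM in WT and 3578 and 1503 CPM in LApcL, whereas S100a1 stood at 40.5 CPM in WT and 19.2 CPM in LApcL. Bex1 stood at 8.73 CPM in WT and 715 CPM in LApcL and was counted in 90.9% of LApcL cells. The metallothioneins Mt1 and Mt2, which bind zinc and copper, were lower, at 560.1 and 93.9 CPM against 8155 and 2164 CPM in WT. The 6 carboxylesterases past the mean stood at no more than 1.702 CPM in LApcL and so passed through WT alone. Of 7 UDP-glucuronosyltransferases past the mean 5 stood at no more than 0.435 CPM in LApcL and passed through WT alone as well, while Ugt2b34 was lower (205 CPM in WT and 78.4 CPM in LApcL) and Ugt2b35 inside the band (31.9 CPM in WT and 18.05 CPM in LApcL). Of 37 histone genes past the mean 9 were higher and 6 lower, the first near the 25.8% of all tested genes. With median-of-ratios scaling 4 were higher and 9 lower of 36, and against WT cells under the enterocyte limit 1 was higher and 2 lower of 40. The replication histone gene Hist1h2ap stood at 61.4 CPM in WT and 194 CPM in LApcL, while the linker histone gene Hist1h1c stood at 444 CPM in WT and 72.6 CPM in LApcL. Lyve1, listed here as an endothelial marker, stood at 52.3 CPM in WT and 0.4596 CPM in LApcL and was counted in 33.1% of WT cells, in which Cdh5, Kdr and Emcn were at 0.102, 0.0614 and 0.0409 CPM.

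Y-linked genes were counted in WT and LApcL alike and hardly in LApc. Ddx3y stood at 48.7, 0.03302 and 49.3 CPM in WT, LApc and LApcL, and Xist at 0.9203, 1281 and 0.261 CPM. None of the 4 sex-linked genes past the mean was beyond 2-fold between WT and LApcL, and the values of LApc given beside them come with this difference.

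Promoter windows at the far ends, also chosen after their values were seen, were searched for the same letters. Of 142 matched genes at least 16-fold lower, 19.7% held the Cdx letters TTTATNG and 6.34% the Hnf4 letters CAAAGTCCA, against 7.67% and 0.426% of all tested genes, and 4.23% held the Tcf and Lef letters CTTTGAT, against 2.72%. Of 110 matched genes at least 16-fold higher, 9.09% held the Tcf and Lef letters, 15.5% the Cdx letters and 0 the Hnf4 letters. Close copies, such as the alpha-defensins, enter these shares more than once.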
